A study of Mus musculus with 10 samples.

Results

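The genes for the subunits of the proteasome were followed in embryonic mouse midbrain, taken at day 14.5. The members were the protein-coding genes of the count table whose mouse symbol is Psma, Psmb, Psmc, Psmd or Psme followed by a number, which gave 43 of 30935 gene IDs. Their symbols came from RefSeq. Pseudogenes were dropped, and Psme2b, a near copy of Psme2 on another chromosome, was no member. The study compared Rbfox1 +/+ embryos (wild-type) with embryos homozygous for a deletion of HAR.321 in the Rbfox1 locus, Rbfox1 ΔHAR.321/ΔHAR.321 (deletion). HARs, human accelerated regions, are conserved sequences that changed fast on the human lineage, and Rbfox1 encodes a neuronal regulator of splicing. Total RNA of 5 samples per genotype, which the labels call independent, was sequenced. They are numbered 1, 2, 4, 5 and 6 in the wild-type group and 2 to 6 in the deletion group. The sources used here do not give strain, sex, litter or the number of deletion lines. Rbfox1 itself stood at 140.4 to 166 CPM in wild-type and 147 to 181 CPM in deletion libraries (CPM, counts relative to library size, scaled by TMM), with a log2 fold change of 0.11 (SE 0.07, edgeR adjusted p = 0.607).

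The proteasome is the large protease that degrades proteins tagged with ubiquitin. Its 20S core is a barrel of stacked rings, with outer rings of alpha subunits (Psma genes) that gate the entrance and inner rings of beta subunits (Psmb genes) that hold the active sites. The 19S particle caps the barrel: a base of ATPases (Psmc genes) unfolds substrates, and the Psmd genes supply the other base subunits and a lid that removes ubiquitin. In cells exposed to interferon the catalytic subunits Psmb5, Psmb6 and Psmb7 are replaced by Psmb8, Psmb9 and Psmb10, which make the immunoproteasome. Psme genes encode alternative caps of the core.

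The libraries held 16246892 to 20255728 counts. The tissue was checked with marker genes: all 8 midbrain markers, such as En1, Otx2 and Lmx1b, were detected well enough to test, and the 5 hindbrain markers summed to at most 0.894 CPM in any library. Hoxb1, Hoxb2 and Hoxb3 had no count, Hoxa2 had 9 counts over the wild-type libraries and 16 over the deletion libraries, and Egr2 had 7 and 26. Of the forebrain markers, Lhx2 and Emx2 stood at means of 161 and 46.8 CPM. In whole tissue, fewer cells of a type and less RNA per cell cannot be told apart. Some marker lists lay mostly on one side of 0, though no marker passed edgeR's test, and their part in the results was not tested. Over all genes, 50.7% were lower, and 50.1% after correction for transcript length and GC content. Of 6 neural progenitor markers, 5 were lower in the deletion group (median log2 fold change -0.13), with sums of 1014 to 1310 CPM in wild-type and 934 to 1322 CPM in deletion libraries. After correction, 3 of the 6 were lower (median -0.06). All 3 tested forebrain markers were lower (median -0.19, and -0.12 after correction), with sums of 199.5 to 258 CPM and 159.7 to 257 CPM. The 10 microglial and macrophage markers summed to 46.9 to 52.1 CPM in wild-type and 44.3 to 50.2 CPM in deletion libraries. Of these 10, 6 were lower (median -0.16), and 6 after correction (median -0.06). The 7 red blood cell markers summed to 1604 to 2430 CPM and 2113 to 2846 CPM. All 6 that were tested were higher as counted (median 0.14), and 1 was lower after correction (median 0.30).

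39 of the 43 genes passed the filter on low counts, and all 39 had at least 180 counts in every library. The 4 others were a germline subunit, a thymic subunit and the pair of immunoproteasome genes Psmb8 and Psmb9. Psma8, the testis form of an alpha subunit, had 14 counts over the 10 libraries, and Psmb11, the catalytic subunit of the thymus, had 13. Psmb8 had 37 counts in all and none in wild-type 4, and Psmb9 had 27 and none in deletion 5. No fold change is given for these 4 genes.

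Levels were compared between genes as CPM per kb of coding length, averaged over the 10 libraries. On this measure the highest levels were those of core subunits. The 7 tested alpha genes ranged from 107 CPM per kb for Psma5 to 202 for Psma7, which both build the alpha ring. The 4 beta genes without an active site ranged from 141 for Psmb2 to 222 for Psmb4, the highest level of any member. The 6 ATPase genes were close together, from 84.2 for Psmc2 to 143 for Psmc6. In the lid, levels ran from 64.6 for Psmd12, a scaffold subunit, to 148 for Psmd8. Psmd2, the large base subunit that docks shuttle proteins and deubiquitinases, had the most counts of all members (348 CPM) and stood at 128 CPM per kb.

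The base chaperones Psmd5, Psmd9 and Psmd10, which help to assemble the ATPase ring and are not part of the finished particle, were lower, at 55.1, 43.4 and 27.9 CPM per kb. Among the caps, Psme3, which encodes the nuclear activator PA28 gamma, stood at 134 CPM per kb and Psme4, the PA200 activator, at 21.1. Psme1 and Psme2, the interferon-responsive PA28 alpha and beta, stood at 98.8 and 43.4. Against the longest annotated transcript in place of the coding length, the order of the 39 genes changed (Spearman's rho across genes = 0.719). Psmb4 was still highest at 149 CPM per kb and Psmb10 still lowest at 8.88. The base gene Psmd2 then ranked 3 (116 CPM per kb) and the core gene Psmb7 ranked 31, so core subunits no longer held all the highest places.

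**Figure D1:**
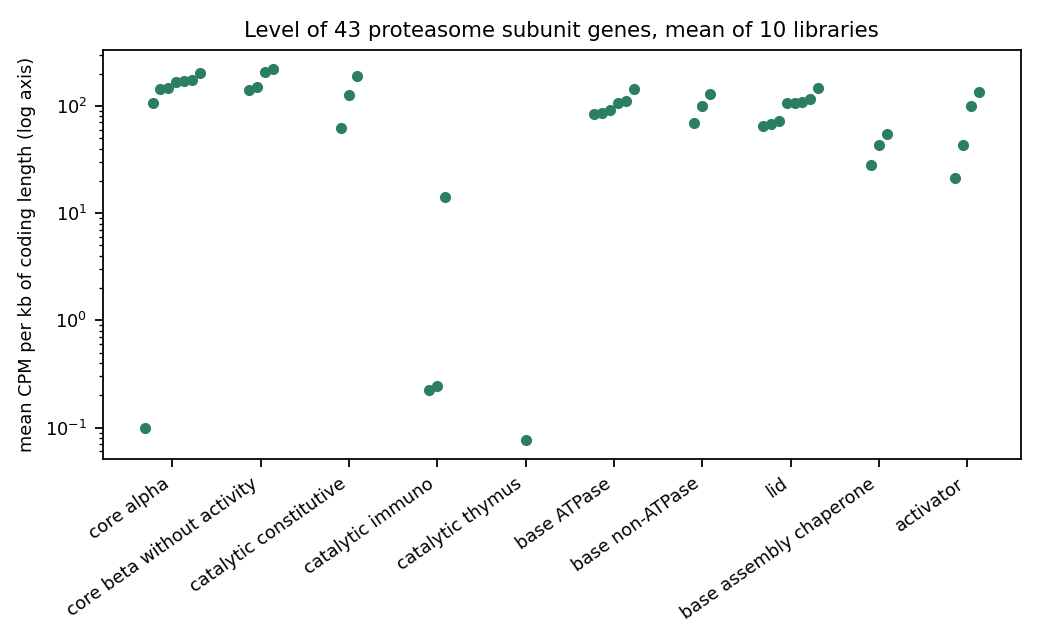
Mean CPM per kb of coding length over the 10 libraries (log axis) for the 43 proteasome subunit genes, 1 point per gene, by class. Psmb4 lies highest at 222, and the 4 genes that did not pass the filter (Psma8, Psmb8, Psmb9 and Psmb11) lie at 0.243 or below.

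The catalytic genes divided into a constitutive set with high levels and an immunoproteasome set that was nearly silent but for Psmb10. Psmb6 stood at 192 CPM per kb and its immunoproteasome counterpart Psmb9 at 0.226. Psmb5, of the chymotrypsin-like site, stood at 61.9 and its counterpart Psmb8 at 0.243. Psmb7, of the trypsin-like site, stood at 126 and Psmb10 at 14.2. The summed CPM of the 3 immunoproteasome genes made up 2.92% to 4.31% of all 6 catalytic genes in the wild-type libraries and 3.59% to 4.85% in the deletion libraries. These ranges overlapped, with means of 3.78% ± 0.565 and 4.19% ± 0.497 (SD, n = 5 each).

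The deletion was then compared with wild-type. No member passed edgeR's quasi-likelihood test at a Benjamini-Hochberg adjusted p of 0.05, where 9 of 15288 genes passed over the whole table (0.0589%). The smallest adjusted p of a member was 0.217. At an unadjusted p under 0.05 there were 9 members, all lower in the deletion group, where 4.92% of all genes met that rule as lower. limma-voom called no member (0.0589% of all genes) and DESeq2 called 1, Psmd7 (adjusted p = 0.0422), which was lower, where 3.28% of the genes it tested were called and 1.65% were called as lower. Of the 39 members, 34 had a negative log2 fold change, against 50.7% of all genes. The median was -0.09 (-0.0858), against -0.0024 over all genes. The shift was small: no 95% interval of a member reached below -0.44 (Psme2) or above 0.23 (Psmb10).

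**Figure D2:**
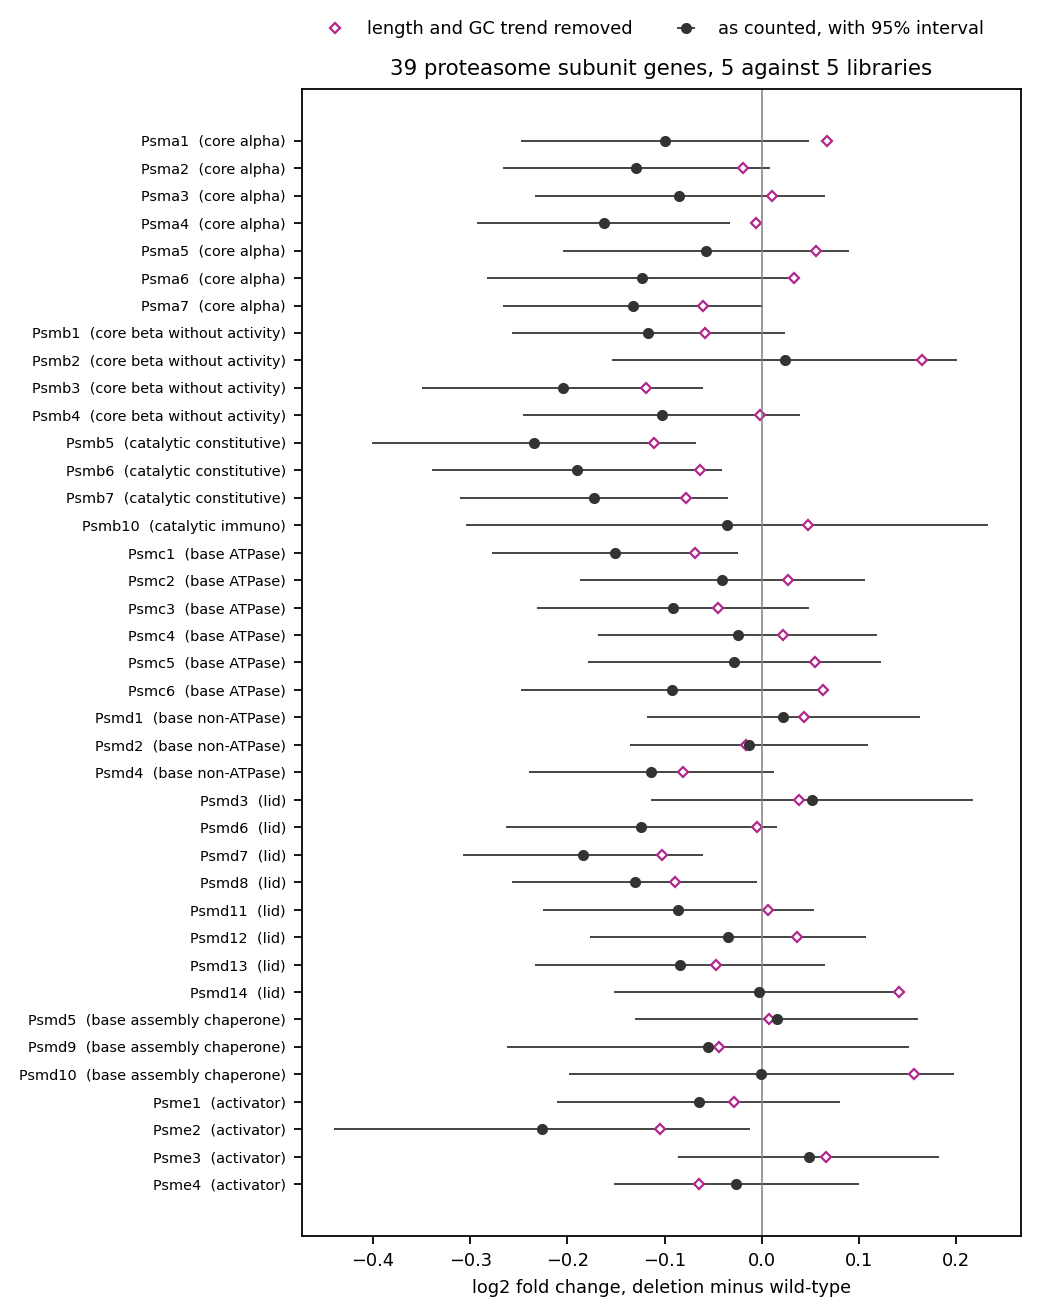
Log2 fold change of deletion minus wild-type for the 39 tested members (filled points, bars for the 95% interval of edgeR's fit, 5 libraries per group), with the value after removal of each library's trend on transcript length and GC content (open diamonds). As counted, 34 of 39 points lie below 0; with the trend removed, 21 do.

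The 3 constitutive catalytic genes were all lower in the deletion group. Psmb5 stood at 52.4, 53.4, 52.8, 54.8 and 51.5 CPM in wild-type 1, 2, 4, 5 and 6, and at 43.4, 46.5, 53.5, 40.0 and 41.6 CPM in deletion 2, 3, 4, 5 and 6. The wild-type libraries were nearly level, and 4 of 5 deletion libraries lay below all of them; deletion 4 lay among them. The log2 fold change of Psmb5 was -0.23 (SE 0.08), which did not pass edgeR's test (adjusted p = 0.252).

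Psmb6, of the caspase-like site, stood at 143, 139, 161, 153 and 133 CPM in the wild-type libraries and 121, 125, 150.0, 122 and 121 CPM in the deletion libraries, in the same order. Once more deletion 4 alone lay within the wild-type range. The log2 fold change of Psmb6 was -0.19 (SE 0.07, edgeR adjusted p = 0.308). Psmb7 ran from 105 to 120.1 CPM in wild-type and from 89.4 to 106 CPM in deletion libraries, with deletion 4 the highest of its group and a log2 fold change of -0.17 (SE 0.07, edgeR adjusted p = 0.324).

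Psmb10, the immunoproteasome gene with a measurable level, stood at 10.8, 13.1, 13.0, 9.41 and 12.6 CPM in wild-type and 12.3, 12.3, 12.6, 10.5 and 9.72 CPM in deletion libraries. The groups covered the same range. Its log2 fold change was -0.04 (SE 0.13, 95% interval -0.30 to 0.23), so a difference of the size seen for Psmb5 was not detectable in Psmb10. Psmb8 held 5, 1, 0, 4 and 6 counts in the wild-type and 8, 1, 6, 4 and 2 counts in the deletion libraries. Psmb9 held 4, 4, 2, 5 and 1 counts and 2, 5, 3, 0 and 1 counts. Both were too low for a comparison.

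**Figure D3:**
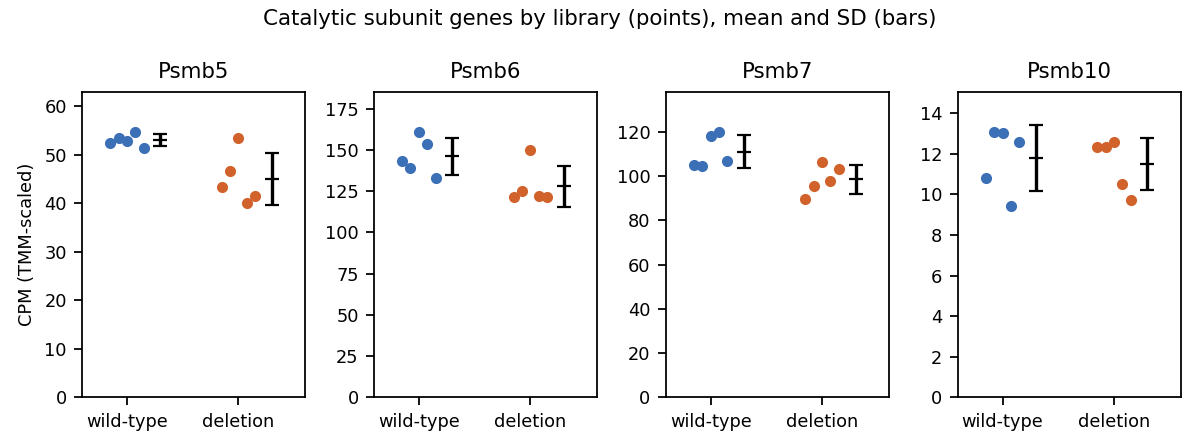
CPM of Psmb5, Psmb6, Psmb7 and Psmb10 in each of the 10 libraries (points), with the mean and SD of each group of 5 beside them. Deletion 4, the highest deletion library for Psmb5 (53.5 CPM) and Psmb6 (150.0 CPM), lies within the wild-type range of both.

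The other core subunits were mostly lower as well, though none passed the test. All 7 tested alpha genes had a negative log2 fold change, with a median of -0.12 and a range from -0.16 to -0.06. Psma4 had the smallest p, at 119 ± 6.79 CPM in wild-type and 106 ± 5.62 CPM in deletion libraries (SD, n = 5; log2 fold change -0.16, SE 0.06, edgeR adjusted p = 0.324), followed by Psma7 (-0.13, SE 0.06). Among the 4 beta genes without an active site, 3 were lower and Psmb2 had a log2 fold change of 0.02 (SE 0.09). Psmb3 stood at 97.7, 92.2, 105, 105 and 97.0 CPM in wild-type and 90.9, 83.1, 96.5, 83.3 and 76.6 CPM in deletion libraries. 4 of the 5 deletion libraries lay below the wild-type range. Its log2 fold change was -0.20 (SE 0.07, edgeR adjusted p = 0.246), and those of Psmb1 and Psmb4 were -0.12 (SE 0.07) and -0.10 (SE 0.07).

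In the 19S particle, 15 of 17 members had a negative log2 fold change, with a median of -0.08. Psmd7, a lid subunit that pairs with the deubiquitinase subunit Psmd14, was the member with the smallest p. It stood at 125, 113, 117, 121 and 116 CPM in wild-type and 102, 100.2, 112, 102 and 105 CPM in deletion libraries. It was the only member whose groups did not overlap, a pattern found with the deletion group below in 1.26% of all genes. The log2 fold change of Psmd7 was -0.18 (SE 0.06, 95% interval -0.31 to -0.06, edgeR adjusted p = 0.217). Psmd8, another lid subunit, differed by -0.13 (SE 0.06) on the log2 scale, and the 8 lid genes had a median of -0.08.

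All 6 ATPase genes had a negative log2 fold change, from -0.15 to -0.02. Psmc1 had the smallest p among them, at 155, 150.4, 169, 147 and 145 CPM in wild-type and 135, 135, 148, 138 and 134 CPM in deletion libraries. Only deletion 4 reached the wild-type range. Its log2 fold change was -0.15 (SE 0.06, edgeR adjusted p = 0.362), and that of Psmc3 was -0.09 (SE 0.07). Of the other base subunits, the ubiquitin receptor gene Psmd4 had a value of -0.11 (SE 0.06) and the scaffold gene Psmd1 one of 0.02 (SE 0.07). The base chaperones were closest to 0, with a median of -5e-04, Psmd9 at -0.05 (SE 0.10) and Psmd5 at 0.02 (SE 0.07).

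The caps differed among themselves in sign. Psme2 stood at 30.4, 28.3, 33.4, 40.3 and 35.2 CPM in wild-type and 30.1, 30.1, 31.9, 27.9 and 23.6 CPM in deletion libraries, which overlapped. Its log2 fold change was -0.23 (SE 0.10, edgeR adjusted p = 0.442), while its partner Psme1 had -0.065 (SE 0.07, edgeR adjusted p = 0.815). Reads of Psme2 could also be placed on Psme2b, which stood at 5.53 ± 0.736 CPM in wild-type and 4.70 ± 1.09 CPM in deletion libraries (SD, n = 5; log2 fold change -0.24, SE 0.18), so the level of Psme2 is uncertain. Psme3 differed by 0.05 (SE 0.06) and Psme4 by -0.03 (SE 0.06), and neither passed edgeR's test.

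Most proteasome subunit transcripts are short, and transcript length moved with the fold changes. Taking the longest annotated transcript of each gene, the median length was 1883 bases over the 39 members and 3492 bases over all genes tested. Of the constitutive catalytic genes, Psmb5 and Psmb6 were short (899 and 966 bases), while Psmb7 had 2849 bases. Among genes of 1 to 2 kb with a mean log2 CPM above 3, 79.7% had a negative log2 fold change and the median was -0.08, and all 21 members of that length were lower, with a median of -0.10. From 2 to 3 kb, 63.3% of genes and 7 of 9 members were lower, with medians of -0.04 and -0.09. Under 1 kb, 87.8% of genes and 3 of 4 members were lower, with medians of -0.17 and -0.21.

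**Figure D4:**
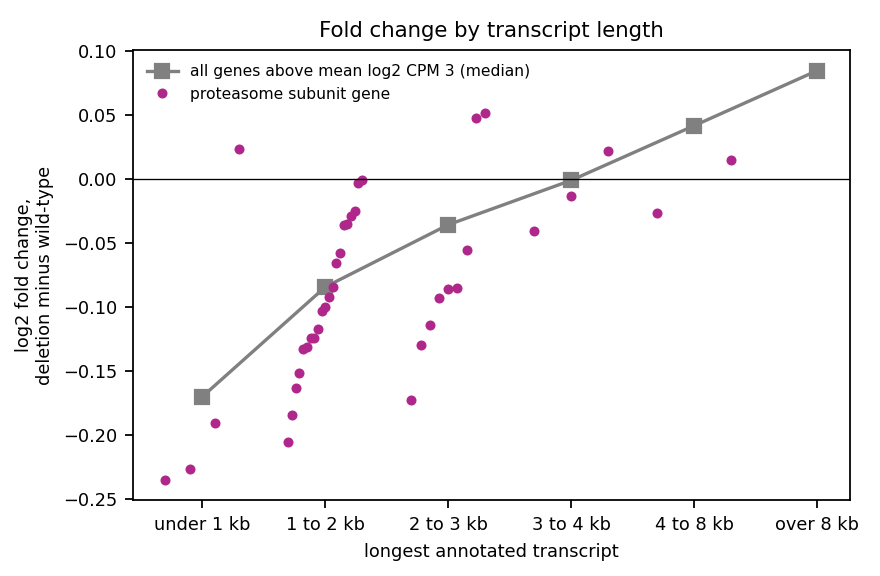
Log2 fold change of deletion minus wild-type for the 39 members (points, spread sideways by value within a length class), with the median of all genes above a mean log2 CPM of 3 in that class (grey squares), by the length of the longest annotated transcript. The median of all genes goes from -0.17 under 1 kb to 0.09 over 8 kb, and the 21 members of 1 to 2 kb lie on both sides of the median for their length.

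The same link was then read by library. The slope of log2 CPM on log2 transcript length over these genes was -0.042, -0.0098, -0.061, -0.047 and -0.014 in wild-type 1, 2, 4, 5 and 6, and 0.041, 0.034, -0.055, 0.049 and 0.104 in deletion 2, 3, 4, 5 and 6. The median deviation of the 39 members from their own means, on the log2 scale, was 0.04, -0.06, 0.17, 0.09 and -0.0021 in the wild-type and -0.06, -0.08, 0.05, -0.04 and -0.11 in the deletion libraries. Wild-type 4 had the lowest slope and the highest member level, and deletion 6 the highest slope and the lowest member level. Deletion 4 lay with the wild-type libraries on both measures. Since the members are mostly short, the measures are tied, and the libraries give no separate evidence of a link with length. The slope was negative in every wild-type library and positive in every deletion library other than deletion 4. The length trend and the genotype therefore cannot be told apart here.

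**Figure D5:**
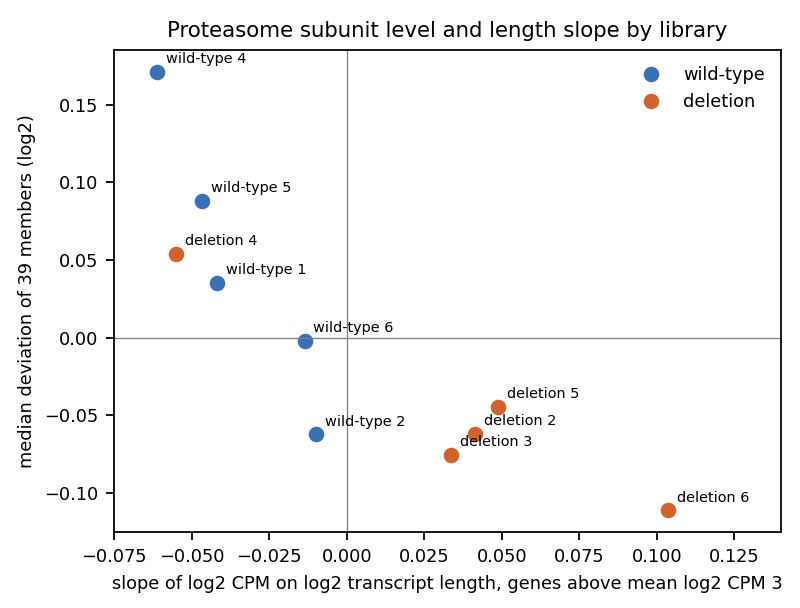
Median log2 deviation of the 39 members in each library (vertical) against that library's slope of log2 CPM on log2 transcript length (horizontal), for 5 wild-type and 5 deletion libraries. Deletion 4 (slope -0.055, deviation 0.05) lies among the wild-type libraries, and deletion 6 (0.104, -0.11) at the other end.

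Once each library's trend with length and GC content was taken out, 21 of 39 members had a negative log2 fold change (50.1% of all genes) and the median was -0.005. With the trend on length alone removed, 24 were negative (50.1% of all genes) and the median was -0.02. No member passed edgeR's test in either fit, where 0.118% and 0% of all genes did. The smallest adjusted p of a member was 0.369 and 0.591. An unadjusted p under 0.05 was reached by 4 members in the first fit (9.58% of all genes) and by 2 in the second (7.75%). Not all of these were lower. In the first fit, Psmb2, a beta subunit without an active site, stood at 0.16 and Psmd14, the deubiquitinase of the lid, at 0.14. Psmb3 and Psmd7 stood below 0 in that fit. The 2 members of the second fit were Psmb2 (0.17, SE 0.07) and Psmb7 (-0.15, SE 0.06). After correction for length and GC content, 3 of 7 alpha genes were lower (median 0.01), 2 of 6 ATPase genes (median 0.02), 4 of 8 lid genes (median 8e-04) and 8 of all 17 genes of the 19S particle (median 0.0066). Of the beta genes without an active site, Psmb1 stood at -0.06 and Psmb4 at -0.0023, and Psmb4 stood at 0.0117 with length alone removed. The 3 constitutive catalytic genes were below 0 in both fits, and after correction for length and GC content their log2 fold changes were -0.11 for Psmb5 (SE 0.06), -0.06 for Psmb6 (SE 0.05) and -0.08 for Psmb7 (SE 0.07). Psmd7 had -0.10 (SE 0.05) and Psmb3 -0.12 (SE 0.05), with edgeR adjusted p = 0.491 and 0.438. The longest annotated transcript may not be the one expressed, which limits this correction for single genes.

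The number of calls changed with single libraries. Without deletion 4, edgeR called 4 members, all lower: Psmb5 (log2 fold change -0.30, adjusted p = 0.0201), Psmb6 (-0.25, 0.0227), Psmb3 (-0.25, 0.0328) and Psmd7 (-0.21, 0.0408). In that fit 1.43% of all genes were called as lower. In the same 9 libraries after correction for length and GC content, a fit chosen after seeing the data, it called 0 members and 0.46% of all genes. The median over the members was -0.04 without wild-type 4 and -0.12 without wild-type 2.

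The promoters of the members were read for motifs, since proteasome genes are known to be induced together by the factor Nrf1 (Nfe2l1) through antioxidant response elements. RefSeq promoters (GRCm38.p6) matched 36 of the 43 genes, and the 250 bases before the start were searched on both strands. No promoter was available for Psma8, Psmb1, Psmb2, Psmb7, Psmc3, Psmd3 and Psmd7, so nothing is known here of their motifs. The element TGACNNNGC was found in 5 of the 36 members (13.9%) and in 2058 of 17088 protein-coding genes (12.04%). CCAAT was found in 14 members (38.9%) and 39.5% of genes. The interferon-stimulated response element was found in 3 members (Psmb3, Psmd4 and Psmd9) and 3.51% of genes, and TTCNNNGAA, the GAS element of interferon gamma signalling, in 1 member, Psmb8, and 7.70% of genes. No 2 motifs overlapped in a member. A match describes letters in this window and is no sign of binding. The 4 matches to TGACNNNGC that lie before every annotated transcript start are shown, since they include Psmb5 and Psmb6; the fifth, in Psmd9, is not. Capitals mark the motif, which lies on the strand shown in Psmb5 and Psmb6 and on the other strand in Psmc6 and Psmd12.
Psmb5, chr14:54618023-54618082, minus strand: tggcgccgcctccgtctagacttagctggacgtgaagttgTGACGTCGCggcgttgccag
Psmb6, chr11:70525308-70525356, plus strand: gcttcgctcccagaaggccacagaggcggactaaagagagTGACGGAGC
Psmc6, chr14:45329574-45329645, plus strand: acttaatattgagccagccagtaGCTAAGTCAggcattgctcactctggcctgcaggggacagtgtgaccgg
Psmd12, chr11:107479278-107479329, plus strand: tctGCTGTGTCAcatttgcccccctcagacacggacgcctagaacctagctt

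Members found with TGACNNNGC had log2 fold changes of -0.23 (Psmb5), -0.19 (Psmb6), -0.09 (Psmc6), -0.03 (Psmd12) and -0.05 (Psmd9). The median over the 39 members, which include the tested ones not searched, was -0.09. Nfe2l1 itself stood at 131 ± 13.1 CPM in wild-type and 136 ± 6.99 CPM in deletion libraries (SD, n = 5; log2 fold change 0.06, SE 0.07, edgeR adjusted p = 0.826).

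Genes that work with the proteasome were read from the same fit in 6 lists, and none of their members passed edgeR's test. Over all genes, 50.7% were lower as counted and 50.1% after correction for length and GC content. Among 8 tested assembly factors and small subunits, 7 were lower (5 after correction) and the median was -0.10 (-0.03 after correction). The core maturation factor gene Pomp had -0.14 (SE 0.06) and the assembly chaperone gene Psmg1 -0.17 (SE 0.10). Of 12 genes on the Nrf1 route, 5 were lower (7 after correction), with a median of 0.04 (-0.0049 after correction). As counted, Maff (-0.40, SE 0.22) and Sel1l (0.10, SE 0.06) had the smallest p among them. The 10 genes of Vcp, the segregase that extracts ubiquitinated proteins, and its cofactors had a median of -0.02, also after correction. Nsfl1c stood at -0.18 (SE 0.06) and Ubxn1 at -0.17 (SE 0.06). Only Ubxn1, 1 of these 10, had groups that did not overlap, with the deletion group below (1.26% of all genes).

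Of 13 shuttles, deubiquitinases and regulators, 9 were higher and 4 lower, with a median of 0.03. After correction for length and GC content, 7 of the 13 were lower (median -0.0038). Ubqln2, a shuttle that carries ubiquitinated proteins to the proteasome, stood at 280.1, 309, 281, 277 and 311 CPM in wild-type and 350.1, 318, 354, 355 and 331 CPM in deletion libraries, with no overlap. Ubqln2 was 1 of 2 genes among these 13 whose groups did not overlap, both with the deletion group above. Groups did not overlap, in either direction, in 2.49% of all genes. The log2 fold change of Ubqln2 was 0.23 (SE 0.06, edgeR adjusted p = 0.129), and DESeq2 called it (adjusted p = 0.00900). DESeq2 called 1 of the 13, where 3.28% of the genes it tested were called. The ubiquitin ligase gene Ubr4, with a longest transcript of 15928 bases, had 0.24 (SE 0.08, edgeR adjusted p = 0.207), and its groups overlapped. After correction for length and GC content it had 0.11 (SE 0.05).

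Of 12 genes for ubiquitin and its activation, 7 were lower (6 after correction), with a median of -0.02 (0.01 after correction). In 2 of the 12, Rps27a among them, the groups did not overlap, with the deletion group below (1.26% of all genes). Rps27a, which encodes ubiquitin fused to a ribosomal protein, had a log2 fold change of -0.21 (SE 0.06, edgeR adjusted p = 0.188), and DESeq2 called it (adjusted p = 0.0386). DESeq2 called 2 of these 12, where 3.28% of the genes it tested were called. After correction for length and GC content, the values were -0.01 for Rps27a (SE 0.05) and 0.22 for Ubqln2 (SE 0.05). Of 12 tested antigen processing and interferon genes, 6 were lower (4 after correction), with a median of 0.03 (0.10 after correction). The peptidase gene Erap1 had a log2 fold change of -0.32 (SE 0.19) as counted.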

How the data were processed

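RNA-seq counts of 10 libraries, 5 per genotype, were analysed. The authors deposited 1 table of whole-number counts per Entrez gene ID, with no normalization. HISAT2, featureCounts and the mm39 build are named in the submitters' processing notes; the sources used here give no versions, annotation or strand setting, so reads of overlapping genes and of near copies could be misplaced. RefSeq's gene table (GRCm38.p6), of another build, gave symbols for 30648 of 30935 IDs. The IDs with no symbol held 0.0116% of the counts. Transcript length, GC content and coding length came from GENCODE M21, for all 43 members; coding length was planned from RefSeq proteins, which were not used here.

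The main test was edgeR 4.0.16 under R 4.3.3 (filterByExpr, TMM, robust quasi-likelihood F test, group as the only term, two-sided), and p-values were adjusted over all 15288 genes by Benjamini-Hochberg with a threshold of 0.05. DESeq2 1.42.0, limma-voom (limma 3.58.1) and 1 surrogate variable (sva 3.50.0) were alternatives, with other scalings and filters, the replicate number as a block and leaving out each library. Length and GC trends were splines with 4 degrees of freedom, fitted per library to genes whose mean log2 CPM exceeded 3 (prior count 2) and used as offsets.

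The members, lists and tests were chosen with earlier results of these data known. The members given in full were the catalytic and Psme genes, the 2 with the smallest p in each other class, the highest and lowest level per length, and any that passed or did not overlap; the 2 genes with the smallest p were taken per list, and some of these are not reported here. Members given only for a level or a motif (Psma5, Psmb2, Psmc2, Psmc6, Psmd2, Psmd10 and Psmd12), Nfe2l1 and Psme2b were chosen after their values were seen. Of the list genes, Paaf1 matched no ID. No 2 libraries of a group were duplicates (lowest chi-square per degree of freedom 5.81). Precision depends on the spread between 5 libraries and on depth, which was 16246892 to 20255728 counts per library. The labels call the samples independent but name no litter or batch, so p-values measure only the spread between these samples.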

Additional observations from a re-analysis of the deposited data

Results flagged for a closer look

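Single libraries that stood far from the other 4 of their group were found for 6 of 84 sets of 5 values. Chance gives about 1 in 20, and 6 is not far from that rate. The sets come from the same 10 libraries, so they are not independent of each other. In 4 of them deletion 4 was high: Psmb6 at 150.0 CPM (the next deletion library at 125), Psmc1 at 148 CPM (next 138), Psmc5 at 129 CPM (next 109) and Psmd13 at 131 CPM (next 113). Psma3 was low in deletion 3, at 122 CPM, with the next deletion library at 127 CPM. Psmd5 stood at 97.4 CPM in wild-type 4, above the next library at 80.8 CPM.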

How the results depend on the processing

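The count of members passing edgeR's test was 0 under every alternative other than DESeq2, which called 1, and leaving out a library, which gave 0 to 4. The count of negative log2 fold changes was 34 of 39, 29 to 37 with a library left out, and 21 after correction for length and GC content, with or without the replicate block. The median was -0.09, and -0.12 to -0.04 with a library left out. Over all genes, 9 passed; the count was 15 with upper-quartile factors, 69 with no filter, 0 with the length trend removed, 18 with the length and GC trend removed, 71 in that fit without deletion 4 (chosen after seeing the data), 268 in DESeq2 and 0 to 357 with a library left out. The cause was not tested.

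Nothing in the labels says that replicate numbers pair the libraries. The correlation of same-numbered libraries, not taken on the expression levels themselves, was -0.0766, -0.131, -0.0629 and 0.122 for numbers 2, 4, 5 and 6. These values were not set against libraries of unlike number, so they cannot exclude a shared litter or batch. With the replicate block, 0 genes passed over all genes and 33 members were negative; with the block and the trend removed, 0 and 21.

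Some single genes turned sign. With the length trend removed, the log2 fold change was 0.0661 for Psmb10, -0.0107 for Psmd5 and 0.0117 for Psmb4. With the length and GC trend removed it was 0.048 for Psmb10, and without deletion 4 as well, 0.0695 for Psmb10, 0.0052 for Psma4 and -0.0041 for Psmd5. With the block and the trend removed it was -7e-06 for Psmd5 and 0.0037 for Rps27a. With a library left out, it ran from -0.11 to 0.0198 for Psmb10, -0.0203 to 0.0774 for Psmd1, -0.0167 to 0.0808 for Psmd5, -0.11 to 0.0027 for Psmd9 and -0.0597 to 0.0067 for Psme4. Psmb8, Psmb9, Psma8 and Psmb11 are limited by depth.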
